A study of Mus musculus with 18 samples.

Results

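Retinal photoreceptors renew their outer segment, a modified primary cilium, through a narrow connecting cilium, and the genes described here encode the machinery that carries protein through it. They were 39 genes named as a list, without measured values in the rule: subunits of the BBSome and the proteins that fold it, the intraflagellar transport (IFT) trains, their motors, the transition zone and the carriers of lipid-modified cargo. Each was read by the probe set that bears its symbol alone in the array annotation, and, where several did, by the brightest on average over the 18 arrays. Of the 39 genes, 36 were measured in this way, out of 18193 genes with such a probe set, and Arl6, Arl13b and Rpgrip1l were not analysed here. RNA of whole retinas was hybridised to Affymetrix mouse genome expression arrays, 18 in all, with 3 arrays for each genotype at postnatal day 0 (P0), at P7 and in the adult. The mutant animals were Plk3-KO mice, deficient in polo-like kinase 3, and they were compared with wild-type (WT) littermates of the same ages, with C57Bl/6 as the labelled strain of both and no agent given. The line had been partly of Black Swiss background with the Rd1 allele of retinal degeneration, which was bred out by crosses to C57Bl/6. Donor sequence that stays linked to the deletion on chromosome 4 cannot be told apart from the deletion itself, and 2 of the measured genes, Ift74 and Kif17, lie on that chromosome. The labels do not say whether arrays of a group came from separate animals, so p-values measure the spread between these arrays.

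The BBSome is a coat of BBS proteins that sorts membrane proteins at the cilium, and mutations of its subunits cause Bardet-Biedl syndrome, in which photoreceptors degenerate. IFT trains, built of IFT-A and IFT-B complexes, travel along the axoneme: they move outward with kinesin motors and return with the dynein whose heavy chain is Dync2h1. The transition zone at the base of the cilium holds Cep290, Rpgr and Iqcb1 and limits what enters. Unc119, Arl3 and Rp2 form a shuttle that delivers myristoylated proteins such as rod transducin to the cilium, with Arl3 as the GTPase that releases the cargo and Rp2 as its GTPase-activating protein. Many ciliary genes are bound by RFX transcription factors at a site called the X-box.

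To show what the starts of these genes look like, promoter sequences were taken from RefSeq (GRCm38.p6, 300 bases that span each gene start), which held 33 of the 36 measured genes in 36 entries and lacked Ift80, Ift81 and Ift122. They were searched on both strands for GTTGCC, one arm of the X-box, for the pair of arms GTTNCC and GGNAAC placed 1 or 2 bases apart, which overlaps GTTGCC where the first arm is GTTGCC, and for TAATCC, a core bound by photoreceptor homeodomain factors. GTTGCC occurred in promoters of 11 of the 33 genes (33.3%), namely Bbs1, Bbs5, Bbs7, Dync2h1, Ift140, Ift172, Ift27, Ift57, Ift88, Kif17 and Kif3a, beside 12.5% of the 32851 promoters of all genes. The spaced pair occurred in Bbs7 and Ift57 (6.06% of the genes) beside 0.718% of all promoters. TAATCC occurred in Bbs1 and Unc119 (6.06%) beside 7.06% of all promoters. The units differ: a cilium gene was counted once for a match in any of its entries, and all promoters were counted by entry. The 4 promoters below are those with the spaced pair, that of the kinesin gene Kif3a, which holds the single arm and whose signal fell with age, and the Unc119 promoter with the homeodomain core, the gene whose signal rose most. Capitals mark the matches, with GGATTA in Unc119 as the reverse complement of TAATCC. They lie at chr3:36613340-36613639 (minus strand, Bbs7), chr16:49699044-49699343 (plus, Ift57), chr11:53567119-53567418 (plus, Kif3a) and chr11:78345334-78345633 (plus, Unc119, 1 of its 3 listed promoters).
Bbs7: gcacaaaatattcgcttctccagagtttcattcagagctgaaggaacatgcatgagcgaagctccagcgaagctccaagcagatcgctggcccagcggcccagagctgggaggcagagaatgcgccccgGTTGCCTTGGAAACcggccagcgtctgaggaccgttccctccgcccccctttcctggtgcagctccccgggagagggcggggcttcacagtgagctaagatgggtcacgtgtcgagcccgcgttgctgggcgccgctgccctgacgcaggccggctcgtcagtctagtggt
Ift57: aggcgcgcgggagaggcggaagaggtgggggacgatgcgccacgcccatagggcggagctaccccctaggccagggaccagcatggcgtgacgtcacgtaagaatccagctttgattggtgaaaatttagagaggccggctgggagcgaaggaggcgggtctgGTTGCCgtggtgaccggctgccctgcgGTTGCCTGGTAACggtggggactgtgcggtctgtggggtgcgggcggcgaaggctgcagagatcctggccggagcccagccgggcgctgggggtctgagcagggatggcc
Kif3a: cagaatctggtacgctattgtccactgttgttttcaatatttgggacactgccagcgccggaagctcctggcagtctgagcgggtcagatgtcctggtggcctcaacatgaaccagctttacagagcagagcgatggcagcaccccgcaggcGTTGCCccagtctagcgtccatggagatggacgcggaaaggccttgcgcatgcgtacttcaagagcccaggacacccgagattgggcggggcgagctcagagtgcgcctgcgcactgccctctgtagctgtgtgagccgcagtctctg
Unc119: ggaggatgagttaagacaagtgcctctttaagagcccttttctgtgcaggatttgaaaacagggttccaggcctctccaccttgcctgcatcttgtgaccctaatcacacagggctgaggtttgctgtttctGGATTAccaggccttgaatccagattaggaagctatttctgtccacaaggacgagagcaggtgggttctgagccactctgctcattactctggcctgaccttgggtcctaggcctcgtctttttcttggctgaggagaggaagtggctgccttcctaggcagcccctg

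Signals were the log2 MAS5 values of the authors, so that a difference of 1 is a doubling of signal; a probe set was tested where the mean exceeded 7 in either group, and called at an adjusted p below 0.05 (limma, Benjamini-Hochberg over all probe sets tested). Array medians ranged from 6.3 to 7.2. Of the 4 arrays that stood apart from the others of their age, adult Plk3-KO array 3 had the lowest mean correlation with arrays of its age, 0.822, and an actin 3′ to 5′ difference of 2.7 against 1.6 to 1.8 on the other adult arrays. The others were the third array of adult WT, the second of P7 Plk3-KO and the third of P7 WT. The 4 differed in their medians. These were 7.2 and 7.0 on the third adult arrays of Plk3-KO and WT, against 6.3 to 6.5 on the other adult arrays. They were 6.4 on each of the 2 P7 arrays, against 6.8 to 6.9 on the other P7 arrays. Adult WT array 3 was not apart in its mean correlation (0.886) or its actin difference (1.6). Rod markers rose in both genotypes, 10 of 10 from P0 to the adult, and the mean of their signals on an array ran from 14.9 to 15.5 in adult Plk3-KO and 14.5 to 15.2 in adult WT retinas, against 8.23 to 9.11 in P0 Plk3-KO and 8.39 to 9.15 in P0 WT retinas. Markers of dividing progenitors fell in 10 of 10 cases in both genotypes. In RNA of a whole tissue, fewer cells of a type and less RNA per cell cannot be told apart. Pigment epithelium markers rose as well, 5 of 7 tested in Plk3-KO and 7 of 7 in WT retinas, and their mean ran from 9.81 to 10.4 in adult Plk3-KO and 9.28 to 10.2 in adult WT retinas, against 5.78 to 5.93 in P0 Plk3-KO and 5.28 to 5.41 in P0 WT retinas. The mean of the lens markers varied within groups, from 6.49 to 11.7 in P0 Plk3-KO and 4.28 to 13.5 in P0 WT retinas. In the adult it ran from 5.2 to 9.1 in Plk3-KO and 8.4 to 10.8 in WT retinas. At P7 it ran from 4.9 to 5.3 in Plk3-KO and 4.6 to 5.8 in WT retinas. The part of these cell types in the results was not tested. The Plk3 probe set gave 7.4, 8.0 and 7.7 in adult Plk3-KO retinas and 5.9, 3.9 and 5.8 in adult WT retinas; the 3′ end of the transcript, where probe sets of this array lie, is outside the deleted part, and this signal therefore checks nothing about the deletion.

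Between P0 and the adult, more of the measured cilium genes were called higher than lower. A larger share of them than of all genes was called higher, and a smaller share lower. The 7 BBSome subunits were all called higher in both genotypes, and the larger share rests largely on them rather than on the list as a whole. In Plk3-KO retinas 15 of 36 were higher in the adult (41.7%, beside 25.6% of 11753 genes) and 5 were lower (13.9%, beside 25.2%). In WT retinas 14 of 36 were higher (38.9%, beside 27.9% of 11806 genes) and 6 were lower (16.7%, beside 23.1%). The median adult minus P0 difference of the 36 genes was 0.60 in Plk3-KO and 0.27 in WT retinas, beside medians of 0.00 and 0.07 over all genes tested. In both genotypes 13 genes were called higher and 5 lower: Bbs1, Bbs2, Bbs4, Bbs5, Bbs7, Bbs9, Ttc8, Bbs12, Arl3, Ift20, Ift57, Ift43 and Unc119 rose, and Ift74, Rpgr, Iqcb1, Kif3a and Tulp3 fell. With each array centred on its median the all-gene median moved by 0.27 in Plk3-KO and 0.37 in WT retinas, 64.9% instead of 50.4% (Plk3-KO) and 73.3% instead of 54.7% (WT) of all called genes were higher in the adult, and Ift74, Iqcb1 and, in WT, Dync2h1 were no longer called. The actin 3′ to 5′ difference, a measure of RNA quality, also moved with age: it was 1.6 to 2.7 on adult Plk3-KO and 1.6 to 1.8 on adult WT arrays, against 1 to 1.3 on P0 Plk3-KO and 1 to 1.1 on P0 WT arrays, without overlap. With that difference as a covariate 14 genes were called higher and 3 lower in Plk3-KO, and 12 higher and 6 lower in WT. The calls lost then were those of Bbs12 and Ift20 in both genotypes, of Ift80, Iqcb1 and Kif3a in Plk3-KO and of Dync2h1 in WT. Genes not called before entered these counts, among the higher ones in Plk3-KO and the lower ones in WT.

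**Figure D1:**
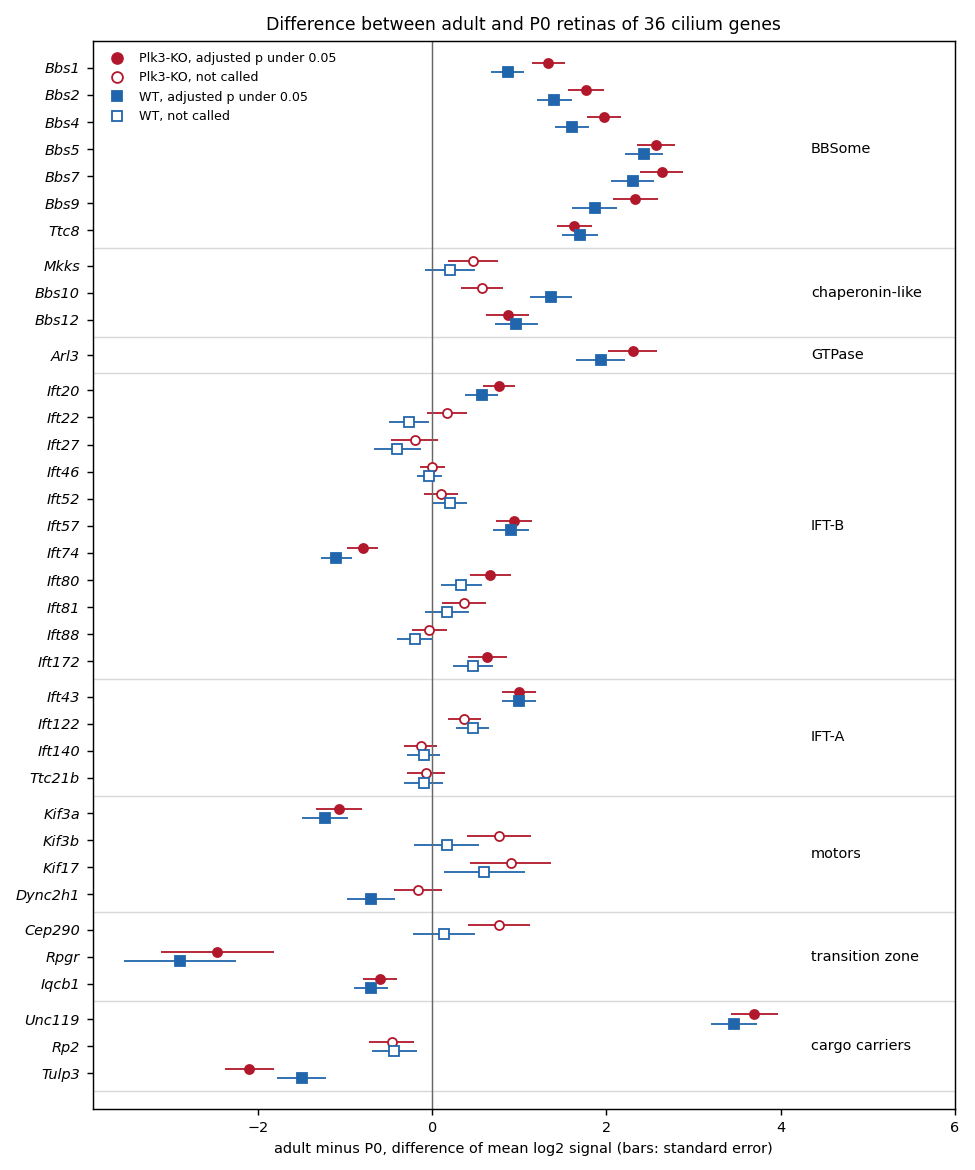
Adult minus P0 difference of mean log2 signal (x axis, log2 units) of 36 cilium genes (y axis, grouped by complex) in Plk3-KO (red circles) and WT retinas (blue squares), with standard errors; filled symbols had an adjusted p below 0.05. The 7 BBSome subunits lie right of 0 in both genotypes, Unc119 lies farthest right at 3.70 in Plk3-KO and 3.47 in WT, and Rpgr farthest left at -2.47 and -2.90.

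All 7 measured subunits of the BBSome rose between P0 and the adult in both genotypes, and all 7 had already risen by P7. Bbs5, a subunit that binds phosphoinositides, gave 9.9, 9.8 and 9.3 in Plk3-KO and 10.2, 9.8 and 9.5 in WT retinas at P0, 11.8, 12.6 and 12 in Plk3-KO and 11.7, 11.8 and 11.8 in WT retinas at P7, and 12.3, 12.1 and 12.3 in Plk3-KO and 12.4, 12.3 and 12.1 in WT retinas in the adult. No P7 or adult array of Bbs5 overlapped a P0 array of its genotype, and in Plk3-KO the P7 and adult arrays overlapped. Its adult mean was 5.92-fold the P0 mean in Plk3-KO (log2 difference 2.57, SE 0.22, adjusted p = 1.62e-07) and 5.40-fold in WT (2.43, SE 0.22, adjusted p = 3.25e-07). Bbs7, a β-propeller subunit, gave 12.7, 11.9 and 11.7 in adult Plk3-KO and 11.9, 12.2 and 11.7 in adult WT retinas, against 9.5, 9.5 and 9.4 in P0 Plk3-KO and 9.6, 9.6 and 9.7 in P0 WT retinas. The differences were 2.63 in Plk3-KO (adjusted p = 4.67e-07) and 2.30 in WT (adjusted p = 2.25e-06). After P7 the difference of Bbs5 did not pass (0.10 in Plk3-KO and 0.50 in WT), and Bbs7 rose again, by 0.90 in Plk3-KO (adjusted p = 0.0192) and 0.87 in WT (adjusted p = 0.0232).

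**Figure D2:**
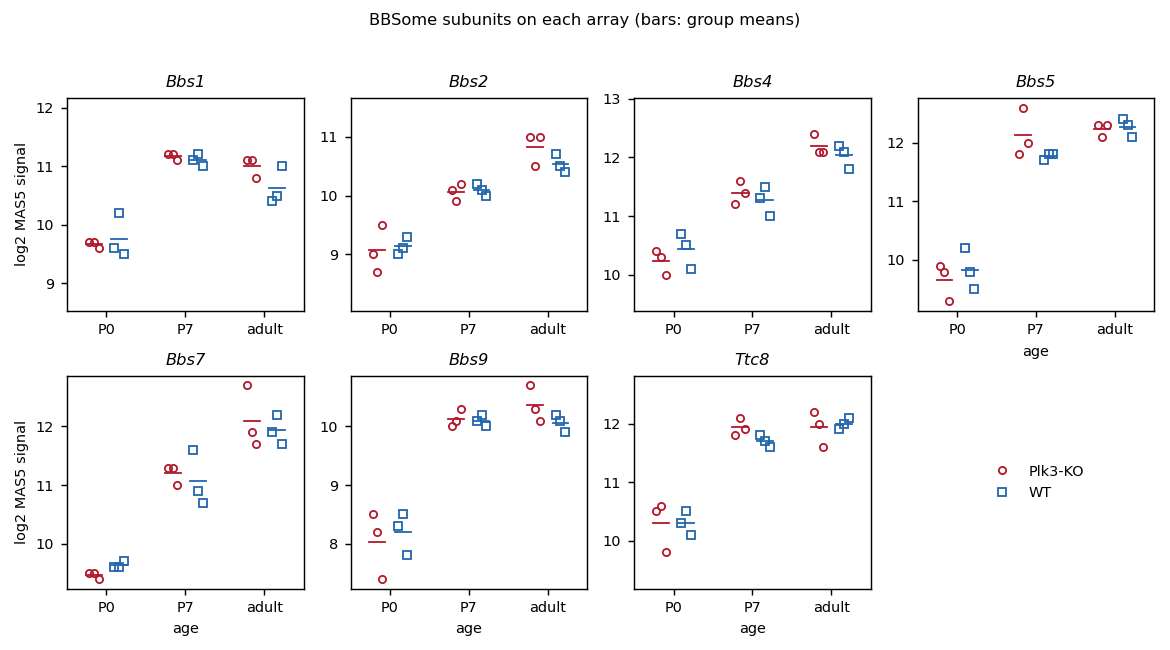
Log2 MAS5 signal (y axis, the same span in each panel) of the 7 BBSome subunits on each array at P0, P7 and in the adult (x axis), Plk3-KO as red circles and WT as blue squares, with group means as bars. The P7 and adult arrays of Bbs5 (11.7 to 12.6) lie above its P0 arrays (9.3 to 10.2).

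Of the other 5 subunits, Bbs4 rose again after P7 in both genotypes and Bbs2 in Plk3-KO. Bbs4, which binds the centriolar satellite protein Pcm1, had P0 values of 10.4, 10.3 and 10.0 in Plk3-KO and 10.7, 10.5 and 10.1 in WT retinas, P7 values of 11.2, 11.6 and 11.4 in Plk3-KO and 11.3, 11.5 and 11.0 in WT retinas, and adult values of 12.4, 12.1 and 12.1 in Plk3-KO and 12.2, 12.1 and 11.8 in WT retinas. The 3 ages of Bbs4 did not overlap within a genotype, and its adult minus P7 difference passed in both (0.80, adjusted p = 0.00952, in Plk3-KO and 0.77, adjusted p = 0.0123, in WT). All 3 further probe sets of Bbs4 were also called higher in the adult than at P0. Bbs2, another β-propeller subunit, differed between adult and P0 by 1.77 in Plk3-KO and 1.40 in WT, and between adult and P7 by 0.77 in Plk3-KO (adjusted p = 0.0146) and 0.43 in WT (adjusted p = 0.14). For Bbs9, Ttc8 and Bbs1 no difference after P7 passed. Bbs9, a β-propeller protein too, differed between P7 and P0 by 2.10 in Plk3-KO (adjusted p = 2.17e-05) and 1.90 in WT (adjusted p = 6.61e-05), and between adult and P7 by 0.23 in Plk3-KO and -0.03 in WT. Ttc8, a tetratricopeptide subunit also known as BBS8, differed between P7 and P0 by 1.63 in Plk3-KO and 1.40 in WT, and between adult and P7 by 0.00 in Plk3-KO and 0.30 in WT. For Bbs1, which contacts Arl6 in the assembled coat, the P7 minus P0 difference was 1.50 in Plk3-KO and 1.33 in WT, and the adult minus P7 difference was -0.17 in Plk3-KO (adjusted p = 0.58) and -0.47 in WT (adjusted p = 0.0965). As a group the 7 subunits stepped up with age. Their mean on an array ran at P0 from 9.29 to 9.64 in Plk3-KO and 9.43 to 9.74 in WT retinas, at P7 from 11.1 to 11.3 in Plk3-KO and 10.9 to 11.1 in WT retinas, and in the adult from 11.4 to 11.8 in Plk3-KO and 11.3 to 11.4 in WT retinas, without overlap between ages in either genotype. A low further probe set of Bbs7, with a mean of 5.27, differed by 1.20 in Plk3-KO and -1.07 in WT between adult and P0 and was not tested.

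The chaperonin-like BBS proteins, which help to assemble the BBSome from its subunits, moved less evenly. Bbs12 rose by 0.87 in Plk3-KO (adjusted p = 0.00992) and 0.97 in WT (adjusted p = 0.00504), with 9.5, 9.4 and 9.4 in adult Plk3-KO and 9.3, 9.7 and 9.9 in adult WT retinas against 8.7, 8.8 and 8.2 in P0 Plk3-KO and 8.8, 8.7 and 8.5 in P0 WT retinas. Its adult and P0 arrays did not overlap, and the Plk3-KO call was lost without P0 Plk3-KO array 3. With the actin covariate neither call of Bbs12 was kept (0.57, adjusted p = 0.196, in Plk3-KO and 0.75, adjusted p = 0.051, in WT). Bbs10 gave 7.4, 7.3 and 7.5 in Plk3-KO and 7.4, 7.2 and 7.1 in WT retinas at P0, 8.2, 7.7 and 7.8 in Plk3-KO and 7.6, 7.7 and 7.7 in WT retinas at P7, and 8.4, 7.7 and 7.8 in Plk3-KO and 8.7, 8.7 and 8.4 in WT retinas in the adult. The adult WT arrays stood above the P7 WT arrays, whereas in Plk3-KO the adult and P7 arrays covered nearly the same range. The adult minus P0 difference of Bbs10 was 0.57 in Plk3-KO (adjusted p = 0.0667) and 1.37 in WT (adjusted p = 0.000274), and the difference between these was -0.80 with an adjusted p = 1.00, so that it did not pass. For Mkks the 2 probe sets disagreed. The brighter one was not called between adult and P0 (0.47 in Plk3-KO and 0.20 in WT), whereas the other was called higher in both genotypes (1.43 in Plk3-KO and 0.97 in WT).

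A smaller share of the IFT genes than of the BBSome subunits was called. Of 11 IFT-B genes, 4 were higher and 1 lower in adult than in P0 Plk3-KO retinas, and 2 higher and 1 lower in WT. Of 4 IFT-A genes 1 was higher in each genotype. Over all genes 25.6% were higher and 25.2% lower in Plk3-KO, and 27.9% higher and 23.1% lower in WT. The median adult minus P0 difference of the IFT-B genes was 0.17 in each genotype. Ift88, a core IFT-B subunit whose loss blocks cilium formation in mice, gave 8.9, 9.0 and 9.2 in adult Plk3-KO and 8.7, 8.8 and 9.2 in adult WT retinas, against 8.9, 9.2 and 9.1 in P0 Plk3-KO and 9.0, 9.2 and 9.1 in P0 WT retinas. These ranges overlapped, and the differences of -0.03 in Plk3-KO and -0.20 in WT (SE 0.20) did not pass. Ift46 and Ift52, other core IFT-B subunits, differed by 0.00 and 0.10 in Plk3-KO and by -0.03 and 0.20 in WT, none of which passed. Neither did Ift27, a small GTPase of the train (-0.20 in Plk3-KO and -0.40 in WT), nor Ift140 and Ttc21b of the IFT-A complex (-0.13 and -0.07 in Plk3-KO, -0.10 in WT for each). A pair of calls in Plk3-KO retinas hung on single arrays. Ift80, a peripheral IFT-B subunit, was called in Plk3-KO (0.67, adjusted p = 0.03) but not in WT (0.33, adjusted p = 0.25); its P0 Plk3-KO values were 10.0, 10.2 and 9.2, the difference was 0.37 without P0 Plk3-KO array 3 (adjusted p = 0.179), the call was also lost without adult Plk3-KO array 1 or 2 (adjusted p = 0.0914 and 0.0696), and its further probe set differed by -0.10. Ift172, the largest IFT-B protein, was called in Plk3-KO (0.63, adjusted p = 0.0311) but not in WT (0.47, adjusted p = 0.0972), and its adjusted p was 0.105 or 0.123 without P0 Plk3-KO array 1 or 3 and 0.0669 or 0.108 without adult Plk3-KO array 1 or 2.

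**Figure D3:**
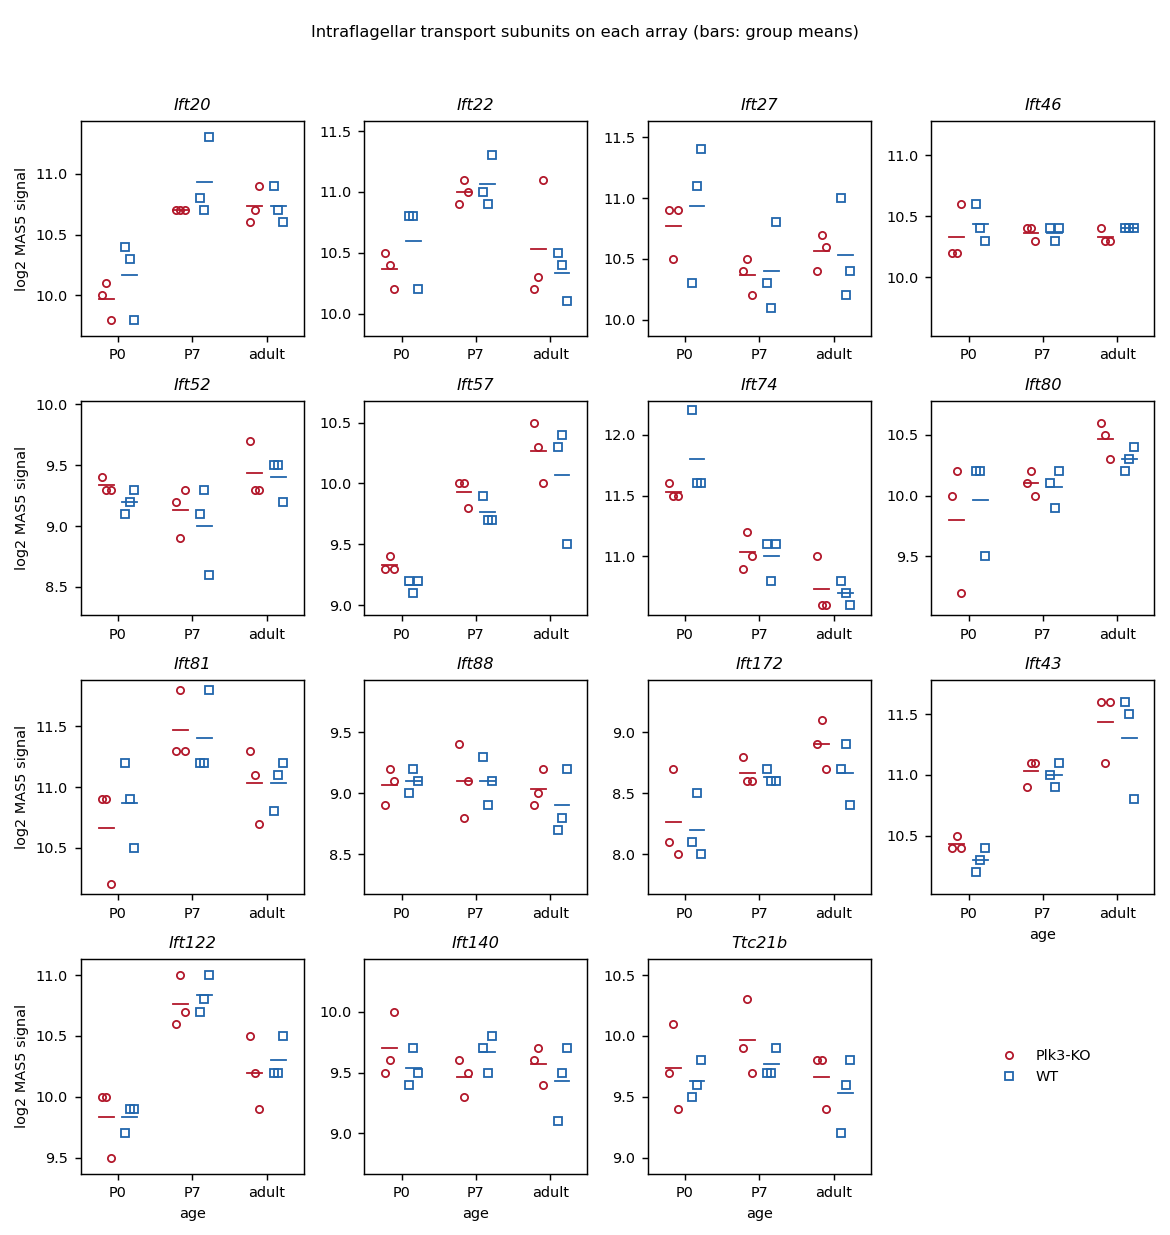
Log2 MAS5 signal (y axis, the same span in each panel) of 11 IFT-B and 4 IFT-A genes on each array at P0, P7 and in the adult (x axis), Plk3-KO as red circles and WT as blue squares, with group means as bars. Ift57 and Ift43 lie higher and Ift74 lower in the adult, and Ift88 stays between 8.7 and 9.4.

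A few IFT genes did move. Ift57, whose promoter holds the spaced X-box pair shown above, gave 10.5, 10.3 and 10.0 in adult Plk3-KO and 10.3, 10.4 and 9.5 in adult WT retinas, against 9.3, 9.4 and 9.3 in P0 Plk3-KO and 9.2, 9.1 and 9.2 in P0 WT retinas. Every adult array lay above every P0 array, and the differences of 0.93 in Plk3-KO (adjusted p = 0.00168) and 0.90 in WT (adjusted p = 0.00224) passed. Ift20, the subunit that is also found at the Golgi and takes part in sending rhodopsin to the cilium, rose by 0.77 in Plk3-KO (adjusted p = 0.00359) and 0.57 in WT (adjusted p = 0.0215), where the call was lost without P0 WT array 3 or adult WT array 1. With the actin covariate its difference was 0.47 in Plk3-KO (adjusted p = 0.136) and 0.34 in WT (adjusted p = 0.188). Ift43, a subunit of the IFT-A complex, rose by 1.00 in each genotype (adjusted p = 0.000597 in Plk3-KO and 0.000623 in WT). Among the IFT genes a fall between P0 and the adult was called for Ift74 alone. This IFT-B subunit, which binds tubulin together with Ift81, gave 11.0, 10.6 and 10.6 in adult Plk3-KO and 10.8, 10.7 and 10.6 in adult WT retinas, against 11.6, 11.5 and 11.5 in P0 Plk3-KO and 12.2, 11.6 and 11.6 in P0 WT retinas. It fell by 0.80 in Plk3-KO (adjusted p = 0.00181) and by 1.10 in WT (adjusted p = 0.000127). Its partner Ift81 was not called between these ages (0.37 in Plk3-KO and 0.17 in WT), and rose between P0 and P7 in Plk3-KO (0.80, adjusted p = 0.0332) beside 0.53 in WT (adjusted p = 0.155), a call that was lost without P0 Plk3-KO array 3 or P7 Plk3-KO array 2.

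For some genes the mean was highest at P7. Ift122, an IFT-A core subunit, gave 10.0, 10.0 and 9.5 on the P0 Plk3-KO and 9.7, 9.9 and 9.9 on the P0 WT arrays, 10.6, 11.0 and 10.7 on the P7 Plk3-KO and 10.7, 10.8 and 11.0 on the P7 WT arrays, and 10.5, 10.2 and 9.9 on the adult Plk3-KO and 10.2, 10.2 and 10.5 on the adult WT arrays. All P7 values exceeded all P0 and adult values of their genotype. The P7 minus P0 difference was 0.93 in Plk3-KO (adjusted p = 0.00212) and 1.00 in WT (adjusted p = 0.00136), and the adult minus P7 difference -0.57 in Plk3-KO (adjusted p = 0.048) and -0.53 in WT (adjusted p = 0.0596), with the later call in Plk3-KO lost under 14 of 19 alternatives. Ift22, a GTPase-like IFT-B subunit, fell after P7 by 0.73 in WT (adjusted p = 0.0343), beside -0.47 in Plk3-KO (adjusted p = 0.169). The WT call was lost under 10 of 19 alternatives, among them leaving out P7 WT array 1 or 3 or any adult WT array (adjusted p from 0.0576 to 0.107). Cep290, which tethers the membrane to the microtubules of the connecting cilium, rose by 1.20 between P0 and P7 in Plk3-KO (adjusted p = 0.0234), beside 0.93 in WT (adjusted p = 0.0749), and the call was lost without P0 Plk3-KO array 1 or 3 or P7 Plk3-KO array 1 or 3.

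More genes were called between P0 and P7 than between P7 and the adult. In Plk3-KO retinas 16 of the 35 genes tested were higher at P7 (45.7%, beside 14.8% of 11426 genes) and 1 was lower (2.86%, beside 12.5%), and in WT retinas 12 were higher (34.3%, beside 15.1% of 11463 genes) and 3 lower (8.57%, beside 10.4%). Kif17 was not tested there because its means lay below 7. Without P0 Plk3-KO array 3, 9 genes were called higher in Plk3-KO, and without P0 or P7 WT array 3, 1 was called lower in WT. Between P7 and the adult the counts were close to the background, 5 higher and 3 lower of 36 in each genotype (13.9% and 8.33%), beside 11.3% higher and 11.6% lower of 11459 genes in Plk3-KO and 12.6% higher and 11.2% lower of 11573 genes in WT. The P7 comparisons with P0 and with the adult share the P7 arrays. The genes that rose after P7 in both genotypes were Bbs4, Bbs7, Arl3 and Unc119, and Rpgr fell in both. These later counts were less settled than the earlier ones: leaving out 1 array at a time gave 3 to 5 higher and 0 to 3 lower in Plk3-KO and 1 to 7 higher and 0 to 6 lower in WT. Of the 16 calls between P7 and the adult in both genotypes together, 0 were kept under all 19 alternatives, beside 14 of 32 between P0 and P7 and 23 of 40 between P0 and the adult. Single arrays ended calls for Bbs4 (P7 WT array 3 or adult WT array 1), Bbs7 (P7 Plk3-KO array 3, adult Plk3-KO array 1, P7 WT array 2 or 3, or adult WT array 1 or 2), Arl3 (adult WT array 1), Bbs2 (P7 Plk3-KO array 2 or adult Plk3-KO array 1), Rpgr (any P7 Plk3-KO array, P7 WT array 3, or adult array 1 or 2 of either genotype), Tulp3 (P7 Plk3-KO array 1 or adult Plk3-KO array 1), Bbs10 (adult WT array 1 or 2), Iqcb1 (any P7 WT array, or adult WT array 1 or 2), Ift122 (any P7 Plk3-KO array, or adult Plk3-KO array 2 or 3) and, as above, Ift22. With the actin covariate the Plk3-KO calls of Bbs2, Arl3, Unc119 and Ift122 and the WT call of Iqcb1 were lost. With each array centred on its median, none was called higher after P7 in either genotype. That centring also raised the share of higher genes among all calls between P0 and P7, to 70.2% in place of 54.1% in Plk3-KO and 73.6% in place of 59.1% in WT, and between P7 and the adult in WT to 64.8% in place of 52.9%.

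The largest rise was that of a cargo carrier. Unc119 gave P0 values of 11.9, 11.7 and 11.6 in Plk3-KO and 12, 12 and 11.5 in WT retinas, P7 values of 13.9, 14.6 and 14.1 in Plk3-KO and 13.9, 13.9 and 14.4 in WT retinas, and adult values of 15.6, 15.2 and 15.5 in Plk3-KO and 15.8, 15.3 and 14.8 in WT retinas. The 3 ages did not overlap, and the adult mean was 13.0-fold the P0 mean in Plk3-KO (log2 difference 3.70, SE 0.26, adjusted p = 2.15e-08) and 11.1-fold in WT (3.47, SE 0.26, adjusted p = 4.83e-08), the largest differences among the 36 genes. Arl3, the GTPase that unloads Unc119, reached 14.7, 14.3 and 14.7 in adult Plk3-KO and 14.8, 14.5 and 13.9 in adult WT retinas, against 12.2, 12.5 and 12.1 in P0 Plk3-KO and 12.4, 12.6 and 12.4 in P0 WT retinas. It rose by 2.30 in Plk3-KO (adjusted p = 6.76e-06) and 1.93 in WT (adjusted p = 4.22e-05), of which 1.33 in Plk3-KO and 1.17 in WT lay after P7. Rp2, which switches Arl3 off, was not called between adult and P0 (-0.47 in Plk3-KO and -0.43 in WT), nor were the 3 of its 4 further probe sets that were tested. Tulp3, which brings G-protein-coupled receptors to primary cilia with IFT-A, gave 7.7, 8.4 and 8.6 in adult Plk3-KO and 8.7, 8.8 and 8.9 in adult WT retinas, against 10.0, 10.3 and 10.7 in P0 Plk3-KO and 10.3, 10.2 and 10.4 in P0 WT retinas. All adult arrays lay below all P0 arrays, by a mean of 2.10 in Plk3-KO (adjusted p = 1.65e-05) and 1.50 in WT (adjusted p = 0.000419), while 2 further probe sets of Tulp3 with means of 5.92 and 5.09 over the arrays were not tested and had differences of either sign.

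**Figure D4:**
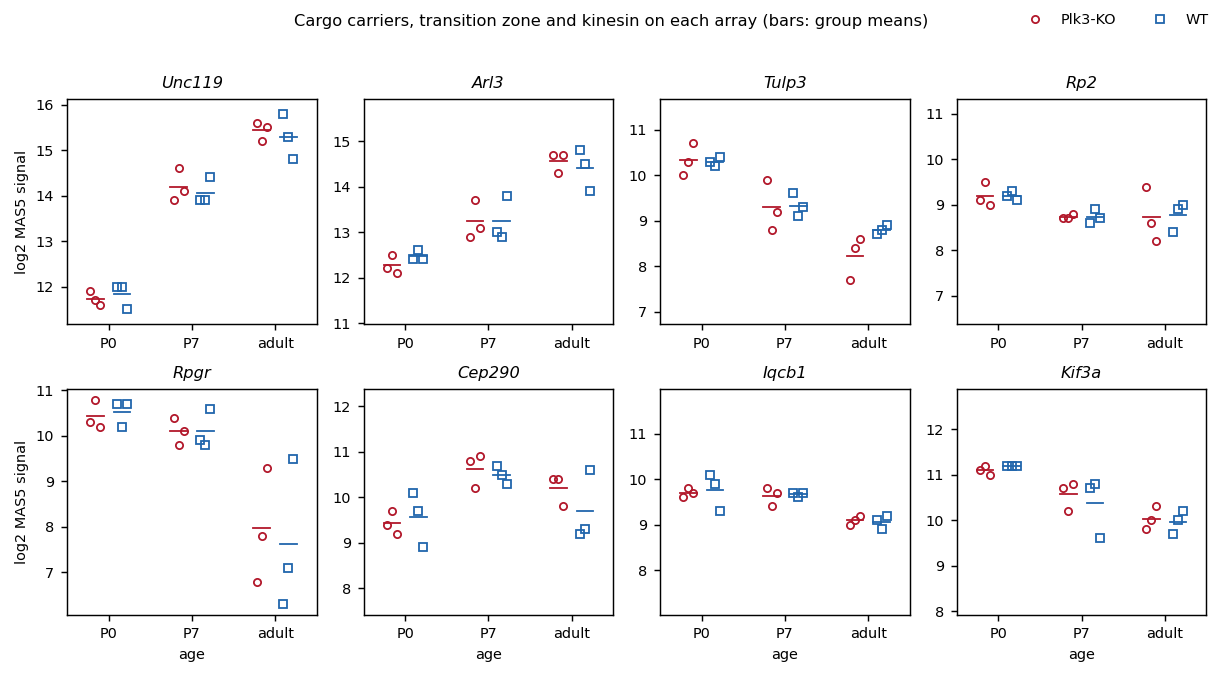
Log2 MAS5 signal (y axis, the same span in each panel) of cargo carriers, transition zone genes and the kinesin gene Kif3a on each array at P0, P7 and in the adult (x axis), Plk3-KO as red circles and WT as blue squares, with group means as bars. Unc119 and Arl3 climb at each age, Tulp3 declines, and the adult Rpgr arrays spread from 6.3 to 9.5.

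At the transition zone, Rpgr showed the largest fall and the widest spread. It gave 6.8, 7.8 and 9.3 in adult Plk3-KO and 6.3, 7.1 and 9.5 in adult WT retinas, against 10.3, 10.8 and 10.2 in P0 Plk3-KO and 10.7, 10.2 and 10.7 in P0 WT retinas. The third adult array of each genotype, both of which stood apart as described, was the high one, and all adult values still lay below all P0 values. The adult mean was lower by 2.47 in Plk3-KO (SE 0.64, adjusted p = 0.00547) and by 2.90 in WT (SE 0.64, adjusted p = 0.00178), and without the 4 arrays that stood apart by 3.13 in Plk3-KO and 3.83 in WT. Each of these calls was kept under 18 of 19 alternatives. Both were lost under the methods' t-test, adjusted, which uses only the spread of the 2 groups compared. Rpgr is spliced into forms with different ends, of which photoreceptors use a retina-enriched one, and the sources used here do not state which end its probe set reads. Iqcb1, a partner of Cep290 also known as nephrocystin-5, fell by 0.60 in Plk3-KO (adjusted p = 0.019) and by 0.70 in WT (adjusted p = 0.00786), and leaving out P0 Plk3-KO array 2 or adult Plk3-KO array 1 ended its Plk3-KO call (adjusted p = 0.0648 and 0.0611). Cep290 was not called between adult and P0 (0.77 in Plk3-KO and 0.13 in WT). Without the 4 arrays that stood apart it was called in Plk3-KO (0.97, adjusted p = 0.0068). The WT difference was then negative and not called (-0.32, adjusted p = 0.311).

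Among the motors, Kif3a, a motor subunit of the kinesin that drives outward transport, gave 9.8, 10.0 and 10.3 in adult Plk3-KO and 9.7, 10.0 and 10.2 in adult WT retinas, against 11.1, 11.2 and 11.0 in P0 Plk3-KO and 11.2, 11.2 and 11.2 in P0 WT retinas. These ages did not overlap, and Kif3a fell by 1.07 in Plk3-KO (adjusted p = 0.0037) and by 1.23 in WT (adjusted p = 0.0013). With the actin covariate the Plk3-KO call was lost (-0.67, adjusted p = 0.139). Of its 3 further probe sets, 2 were also called lower in both genotypes and the third was not (-0.27 in Plk3-KO and -0.53 in WT). Its partner Kif3b was not called (0.77 in Plk3-KO and 0.17 in WT), although 2 of its 3 further probe sets were called higher in Plk3-KO (0.83 and 1.43), with 0.53 and 1.03 in WT, not called. Kif17, a kinesin that works beside it, lay near the minimum with adult values of 6.5, 7.2 and 8.3 in Plk3-KO and 6.6, 7.4 and 7.7 in WT retinas, and was not called. Dync2h1 was called lower in adult WT retinas only (0.70 lower, adjusted p = 0.0449, beside -0.17 in Plk3-KO, adjusted p = 0.634); the difference between genotypes did not pass (adjusted p = 1.00), and the WT call was lost under 12 of 19 alternatives.

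No cilium gene was called between Plk3-KO and WT retinas at any age, nor was any other gene. The Plk3 probe set itself was not called in the adult, at a difference of 2.5 (limma, adjusted p = 0.978). By qPCR the authors found the 3′ end of Plk3 raised in the knockout. The absence of calls therefore does not show an absence of differences. At each of the 3 ages, in the mean over ages and in the adult minus P0 contrast of the genotype differences, 0 of the genes tested passed in limma, beside 0% of 11233 genes in the adult, of 11054 at P7, of 10940 at P0, of 12109 over the ages and of 11981 in the contrast of ages. At an unadjusted p under 0.05, Bbs10 was the 1 cilium gene found in the adult and the 1 in the contrast of ages, with 0 in the other comparisons. Over all probe sets tested, 1008 of 21005 passed that level in the adult, 123 of 21390 at P7 and 85 of 22611 at P0. The spread of a probe set was pooled over the arrays of all ages, so its SE was the same at each age. For Rpgr it was 0.645 in the adult and at P0, and for Bbs7 0.249. The limma tests and intervals at P0 and P7 therefore do not measure the spread of the compared arrays alone. The methods' t-test called 0 at each age after adjustment. With 3 arrays against 3, an exact permutation test of a single gene cannot go below p = 0.1. The Plk3-KO minus WT differences ran from -0.63 (Bbs10) to 0.50 (Cep290) in the adult, from -0.23 (Ift20) to 0.37 (Bbs5) at P7 and from -0.27 (Ift74) to 0.17 (Bbs10) at P0 (the adult 95% intervals had a median width of 0.49 to either side). For 30 of 36 genes in adult retinas, 33 of 35 at P7 and 33 of 35 at P0, the interval lay within 1 log2 unit on either side of 0. With arrays weighted by their quality, 4 of 36 genes were called in the adult, beside 1452 of 21005 probe sets. Cep290 (1.01), Dync2h1 (0.80) and Bbs1 (0.57) were higher in Plk3-KO and Bbs10 (-0.89) was lower, with adjusted p from 0.0138 to 0.0368. The estimation of these weights did not converge. Without the 4 arrays that stood apart, 338 probe sets of all were called in the adult, and none of the cilium genes.

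**Figure D5:**
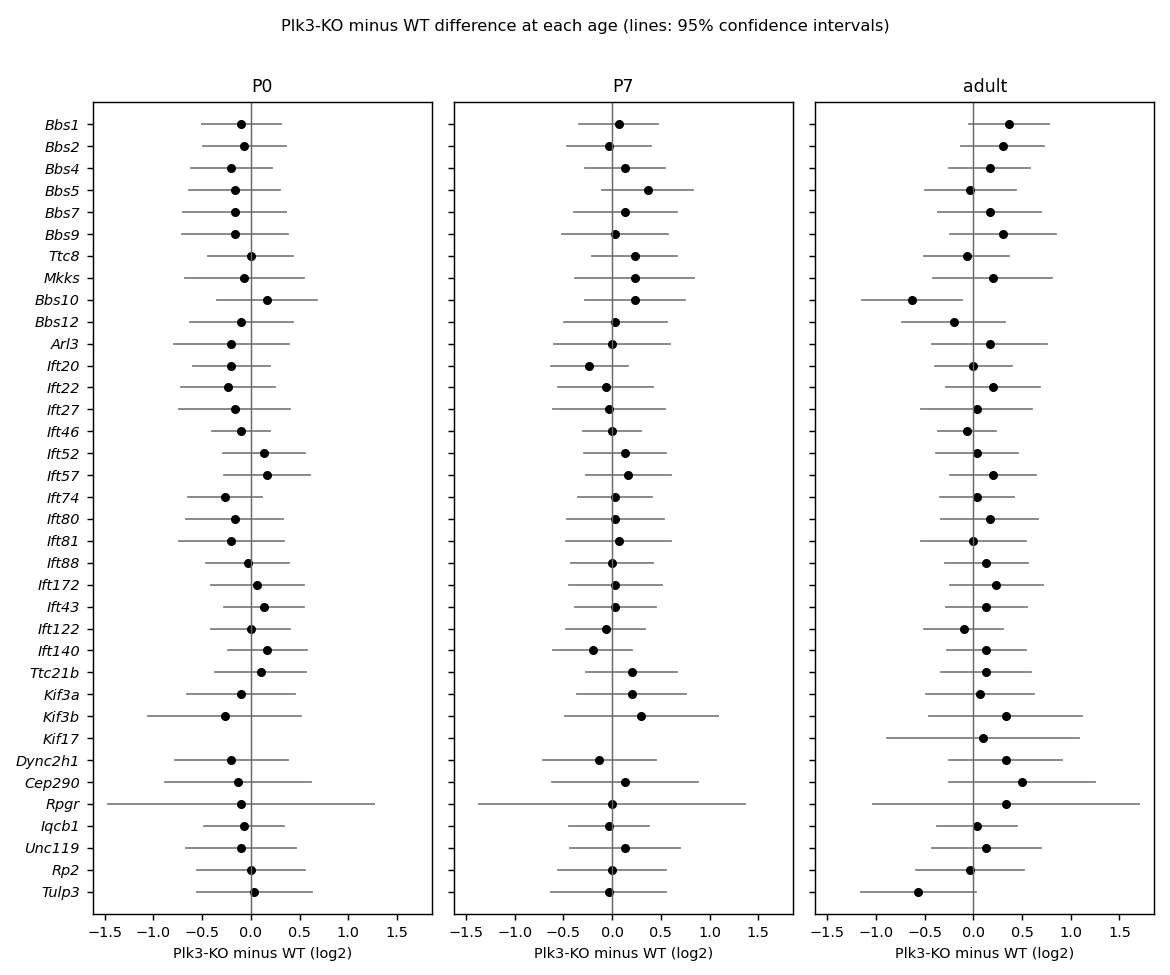
Plk3-KO minus WT difference of mean log2 signal (x axis, log2 units) of the cilium genes (y axis) at P0, P7 and in the adult, as points with 95% confidence intervals; Kif17 is drawn in the adult only. All points lie between -0.63 and 0.50, and the interval is widest for Rpgr. The intervals use a spread pooled over ages, so their width for a gene is the same at each age drawn.

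The largest genotype differences were in the adult. Bbs10 gave 8.4, 7.7 and 7.8 in Plk3-KO and 8.7, 8.7 and 8.4 in WT retinas, a difference of -0.63 (95% interval -1.15 to -0.12, adjusted p = 0.978), and the groups met at 8.4. Its further probe set differed by -0.43 and was not called. The adult arrays of Tulp3 did not overlap between genotypes, with 7.7, 8.4 and 8.6 in Plk3-KO and 8.7, 8.8 and 8.9 in WT retinas. Its difference was -0.57 (95% interval -1.16 to 0.02, adjusted p = 0.978). For Cep290 the difference was 0.50 (95% interval -0.25 to 1.25), and without the 4 arrays that stood apart it was 1.15 (adjusted p = 0.0705), its adult values being 10.4, 10.4 and 9.8 in Plk3-KO and 9.2, 9.3 and 10.6 in WT retinas, array 3 last. Array 3 was thus the lowest of the Plk3-KO and the highest of the WT arrays. Without those arrays the difference was 0.80 for Dync2h1 (adjusted p = 0.0707), beside 0.33 with them, and 0.65 for Bbs1 (adjusted p = 0.132), beside 0.37 with them. The BBSome subunits differed between adult genotypes by a median of 0.17, and none of their intervals reached 1. Ift74 and Kif17, on the chromosome of Plk3, differed by 0.03 and 0.10 in the adult. At P0 the arrays of Bbs7 and Ift57 did not overlap between genotypes, at differences of -0.17 and 0.17. How many of all genes were without such overlap, at P0 or, as Tulp3, in the adult, was not counted. With 3 arrays against 3, full separation of a single gene corresponds to p = 0.1 in an exact permutation test. The separations of Tulp3, Bbs7 and Ift57 are therefore given as values only.

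Other genes of the same pathways were read by the same rule, in lists chosen for their function. Of 11 further BBSome and IFT genes, 4 were higher and 1 lower in the adult than at P0 in each genotype, beside 25.6% higher and 25.2% lower of all genes in Plk3-KO and 27.9% higher and 23.1% lower in WT. The counts that follow have the same background. Bbip1, the small BBSome subunit, and Lztfl1, a regulator of BBSome traffic, did not pass (0.03 and 0.10 in Plk3-KO, -0.17 and -0.23 in WT). Of 15 further transition zone genes tested, 6 rose and 1 fell in Plk3-KO and 5 rose in WT, with Tmem237, a membrane protein of the zone, higher by 1.40 in Plk3-KO and 1.47 in WT. Rpgrip1, the anchor of Rpgr in the connecting cilium, was higher by 1.83 in Plk3-KO (adjusted p = 0.00798) and differed by 1.00 in WT (adjusted p = 0.114), and it was lower in neither genotype. Of 9 further motor subunits, 6 rose and 1 fell in Plk3-KO and 4 rose and 1 fell in WT. The dynein light chain Dynlrb1 rose by 1.37 in Plk3-KO (adjusted p = 0.00773) and differed by 0.93 in WT (adjusted p = 0.0515), and Dynll1, another light chain, by 0.13 in Plk3-KO and 0.00 in WT.

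The basal body list had more falls than rises, 5 and 1 of 12 in Plk3-KO and 6 and 1 of 12 in WT. Of its centrins, Cetn3 was lower by 1.13 in Plk3-KO (adjusted p = 0.0213) and by 0.93 in WT (adjusted p = 0.0496), and Cetn2 differed by 0.23 in Plk3-KO and -0.03 in WT. Of 12 further cargo and Rab genes, 5 rose and 2 fell in each genotype. Among them Tulp1, the photoreceptor relative of Tulp3, rose by 3.67 in Plk3-KO (adjusted p = 3.68e-08) and 3.57 in WT (adjusted p = 5.31e-08), opposite to Tulp3. The GTPase Rab28 rose by 2.20 in Plk3-KO and 2.03 in WT. Of the RFX factors and Foxj1, which act on X-boxes and ciliary genes, 1 rose and 2 fell of 6 tested in Plk3-KO, and 1 rose and 3 fell of 5 tested in WT. Rfx7 fell by 1.67 in Plk3-KO and 1.77 in WT, and Rfx3, named after its values were seen, fell by 2.10 in Plk3-KO (adjusted p = 0.00034) and by 2.33 in WT (adjusted p = 0.000138).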

How the data were processed

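RNA from isolated retinas was measured on 18 Affymetrix mouse genome expression arrays, 3 for each of 6 combinations of genotype and age taken from the labels. The deposited values are log2 intensities that the authors made with MAS5 in R, rounded to 1 decimal; no source used here gives its version. The table held 45101 probe sets, of which 64 controls were left out. Of the others, 34945 bear 1 gene symbol, 932 several and 9160 none.

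Group means of all probe sets were fitted with limma 3.58.1 (lmFit, eBayes with a trend; R 4.3.3, statmod 1.5.0; 12 residual and 4.07 prior degrees of freedom), and p-values were adjusted by Benjamini-Hochberg within a comparison over the probe sets with a mean above 7 in either group. The fit was tested on simulated data. Members and lists were chosen with earlier results of these data known. All members were named, with the 2 brightest genes of each further list, probe sets that oppose a called change, and Plk3. Same-numbered arrays did not deviate together at each age (correlations from -0.61 to 0.544), so that the numbers were not used as pairs. In the adult all these correlations were positive (0.489, 0.0983 and 0.544), above the best ones between different numbers (0.413, 0.0262 and -0.381). Whether adult arrays of a number share a litter or batch was not tested. Alternatives covered normalization, filters, moderation, test, arrays and array weights, RNA quality and the probe set per gene. The number of arrays limits the precision. Promoters came from RefSeq (GRCm38.p6).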

Additional observations from a re-analysis of the deposited data

How the results depend on the processing

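Of 40 called adult minus P0 results of single genes, 23 were called under all 19 alternatives and 0 changed sign; the WT call of Dync2h1 was lost under 12, the Plk3-KO calls of Ift80 under 8, Ift172 under 7 and Iqcb1 under 5, and the WT call of Ift20 under 5. The causes of the changes below were not tested. With arrays centred on their medians, counts of lower genes were 3 in Plk3-KO and 3 in WT between adult and P0, 0 in Plk3-KO and 0 in WT between P7 and P0, and, for WT, 1 between adult and P7, where 0 were higher in either genotype. The methods' t-test, adjusted, gave in WT 3 lower (adult minus P0), 1 lower (P7 minus P0) and 1 higher and 0 lower (adult minus P7), and in Plk3-KO 0 higher and 0 lower (adult minus P7). Fitting only the arrays compared gave for adult minus P7 3 higher and 0 lower in Plk3-KO and 1 higher and 0 lower in WT, and for P7 minus P0 2 lower in Plk3-KO. Array weights, whose estimation did not converge, gave for adult minus P7 6 lower in Plk3-KO and 9 higher and 11 lower in WT, for P7 minus P0 4 lower in Plk3-KO and 5 in WT, and 4 genes between adult Plk3-KO and WT. Without the 4 arrays that stood apart, adult minus P7 had 5 lower in Plk3-KO and 8 higher and 7 lower in WT, and P7 minus P0 had 2 lower in Plk3-KO. The actin difference as a covariate gave in Plk3-KO 3 lower (adult minus P0), 2 lower (P7 minus P0) and 2 higher (adult minus P7). For P7 minus P0 in Plk3-KO, quantile normalization gave 2 lower and the mean of a gene's probe sets 3. With no filter, 1 gene was lower in WT between adult and P7.

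Leaving out 1 array at a time, adult minus P0 had 12 to 17 higher and 4 to 5 lower in Plk3-KO and 13 to 14 higher and 5 to 6 lower in WT. P7 minus P0 had 9 to 14 higher and 0 to 1 lower in Plk3-KO (lower: 0 without P0 array 3 or P7 array 2) and 10 to 13 higher and 1 to 3 lower in WT. Adult minus P7 had 3 to 5 higher in Plk3-KO (3 without adult array 1) and 0 to 3 lower (0 without P7 array 1, and 1 without P7 array 2 or 3 or adult array 1 or 2). In WT it had 1 to 7 higher (1 without adult array 1, 3 without adult array 2 or P7 array 3) and 0 to 6 lower (0 without adult array 1 or 2, 1 without P7 array 1 or 3, and 6 without adult array 3). The genotype comparisons had 0 throughout. With the replicate number as a block the counts were 15 higher and 5 lower in Plk3-KO and 14 higher and 6 lower in WT between adult and P0, and 0 between genotypes, and the block changed no count by over 1.5 times. Signals near the minimum of 7, as for Kif17, and 3 arrays in a group limit what could be called.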
